A study of Mus musculus with 20 samples.

Results

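Acetylation of histone H3 at lysine 27 (H3K27ac) was compared between the lineage-negative (Lin-) bone marrow cells of WT mice and of Tet2-/- mice. The peak lists of the 2 libraries were merged, and a merged region was called lost when no Tet2-/- peak overlapped it by at least 1 bp, gained when no WT peak did, and retained otherwise. This gave 33228 regions, of which 10168 were lost, 4671 were gained, and 18389 were retained; the H3K27ac lists of all 4 genotypes merged into 35252 regions. The series holds 20 samples of Lin- cells of 4 genotypes, WT, Ep300Δ/Δ, Tet2-/-, and Ep300Δ/ΔTet2-/-, with 1 library for each genotype and antibody, and 12 peak lists of H3K27ac, H3K4me1, and H3K4me3 were used here. The WT mice were Ep300 fl/fl without Cre, and the Tet2-/- mice were Ep300 fl/fl;Tet2-/- without Cre. Floxed Ep300 was therefore shared by both groups, both received poly(I:C) as young adults, and Tet2 was absent from the germline of the Tet2-/- mice in all cells rather than removed in the blood alone. The other pair of genotypes carried Mx1-Cre, which poly(I:C) induces and which deletes Ep300. Mice of both sexes on a C57BL/6 background were used in the study, and the methods place experiments some weeks after the injections unless another time is given. The sources used here do not give the number of mice or any pooling for a library. With 1 library per genotype there was no spread between mice, no test was made, and each difference describes these 2 libraries.

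TET2 is a dioxygenase that oxidizes 5-methylcytosine, mostly at CpG dinucleotides, and is one of the genes most often mutated in clonal hematopoiesis and myelodysplastic syndromes. H3K27ac, laid down by the acetyltransferases p300 and CBP, marks active promoters and active enhancers. H3K4me1 marks enhancers whether or not they are acetylated, and H3K4me3 marks mainly promoters, so a region that keeps H3K4me1 without H3K27ac is commonly described as primed or poised. Lin- marrow is depleted of cells that stain for mature lineage antigens and is rich in stem and progenitor cells. Fewer cells of a type and less acetylation per cell cannot be told apart in such bulk chromatin.

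Sequence around the summits of the strongest changed regions and of 3 loci described further on is shown first, so that their CpG content can be read directly; most changed regions were weaker than these. Each line holds 101 bases of the plus strand of mm10, centered on the peak summit, with every CpG in capitals. The first 3 are the strongest lost regions outside promoters that had H3K4me1 in WT cells, named by the gene at the nearest start, followed by the strongest lost regions nearest Cxcr4 and Irf8.
Fam222b: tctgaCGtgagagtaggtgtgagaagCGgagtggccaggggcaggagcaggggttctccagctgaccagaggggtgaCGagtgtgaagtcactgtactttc
Gsr: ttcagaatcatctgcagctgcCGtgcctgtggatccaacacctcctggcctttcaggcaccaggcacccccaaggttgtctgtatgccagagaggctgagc
Nxpe1-ps: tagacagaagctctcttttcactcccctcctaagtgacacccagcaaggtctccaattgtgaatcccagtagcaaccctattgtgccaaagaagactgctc
Cxcr4: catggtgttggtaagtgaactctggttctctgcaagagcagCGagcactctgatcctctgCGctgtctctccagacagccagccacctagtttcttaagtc
Irf8: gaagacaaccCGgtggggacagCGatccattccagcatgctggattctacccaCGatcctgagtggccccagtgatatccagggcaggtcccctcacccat
The next 3 are the strongest gained regions outside promoters that had H3K4me1 in Tet2-/- cells, followed by the strongest gained region nearest Gata2.
Gm17711: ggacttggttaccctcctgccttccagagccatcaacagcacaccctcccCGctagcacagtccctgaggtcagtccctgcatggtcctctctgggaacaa
Gm9002: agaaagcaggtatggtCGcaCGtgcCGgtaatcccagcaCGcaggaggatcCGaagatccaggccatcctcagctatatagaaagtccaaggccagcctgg
Eya2: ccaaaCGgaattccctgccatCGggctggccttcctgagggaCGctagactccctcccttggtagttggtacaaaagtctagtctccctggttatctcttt
Gata2: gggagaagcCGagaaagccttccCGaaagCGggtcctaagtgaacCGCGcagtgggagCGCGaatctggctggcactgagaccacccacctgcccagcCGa
The lost windows lay at chr11:78101122-78101222, chr8:33675593-33675693, chr9:48413393-48413493, chr1:128569988-128570088, and chr8:120761216-120761316. Gained windows lay at chr10:17989360-17989460, chr10:117434619-117434719, chr2:165639347-165639447, and chr6:88196900-88197000. CpG numbered 3, 1, 0, 2, and 3 in the 5 lost windows and 1, 5, 3, and 8 in the 4 gained ones. Of the 14 consensus motifs described further on, the Eya2 window held a GATA match, the Gm17711 window a MYB match, the Nxpe1-ps window an NF-Y match, and the Fam222b, Gsr, and Gata2 windows an E-box.

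The labels were checked against marker promoters. An H3K27ac peak lay within 3000 bp of a start for all 8 stem and progenitor markers in WT cells and for 7 of 8 in Tet2-/- cells, where Cd34 had none, and for neither of 2 liver markers in either list. Of the markers of mature cells, 1 of 4 for T and NK cells and 2 of 4 for neutrophils and macrophages had one in WT, against 0 and 1 in Tet2-/-. Stroma and endothelium had 1 of 4 in WT, Pecam1, and 2 of 4 in Tet2-/-, Pecam1 and Cdh5. Both H3K27ac libraries had 4 peaks on chromosome Y and a peak at the Xist promoter. Tet2 itself (chromosome 3, 133463679 to 133545139 of mm10) had 3 H3K27ac peaks in WT and 2 in Tet2-/- cells, with a promoter peak in both, and Ep300 (chromosome 15, 81585351 to 81652077) had 3 in both, so the peaks gave no check on the knockout. Sequencing depth cannot be read from these lists, and calling finds more peaks in a deeper library. The 29659 WT and 24539 Tet2-/- peaks therefore count calls and not amounts of acetylation.

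Tet2-/- cells had fewer acetylated regions than WT cells, and the regions that differed were mostly weak and, more often than retained ones, away from promoters. For gained regions the place depended on the threshold, with 46.0% at promoters over the whole list and 54.8% at a −log10 q of at least 5. Of the 28557 WT regions 35.6% were lost (exact Clopper-Pearson 95% interval, 35.1% to 36.2%), and of the 23060 Tet2-/- regions 20.3% were gained (19.7% to 20.8%). These intervals, like all below, cover counting error only. This came to 2.18 lost regions for each gained one. The excess of losses depended on the length of the lists: when each list was cut to its strongest 24539 peaks by −log10 q, 6327 regions were lost and 5804 gained. By the same rule and with uncut lists, 28.6% of WT H3K4me1 regions were lost and 26.8% of Tet2-/- ones gained, and H3K4me3 lost 11.1% and gained 13.6%.

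Each peak carries the authors' fold enrichment over H3 ChIP, which was used to rank peaks within 1 list. In the strongest of 4 equal parts of the WT regions, from 11.6- to 97.3-fold, 85 of 7140 were lost (1.19%; 0.952% to 1.47%). The share was 20.6% in the next part, 51.0% in the third, and 69.6% in the weakest. Gains followed the same order in the Tet2-/- list, with 26 of 5765 (0.451%; 0.295% to 0.660%), then 7.06%, 29.3%, and 44.2%. Within each part the share was higher outside promoters. In the second part, for example, 33.2% (31.4% to 35.1%) of WT regions outside promoters were lost and 14.1% (13.1% to 15.1%) of those at promoters.

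**Figure D1:**
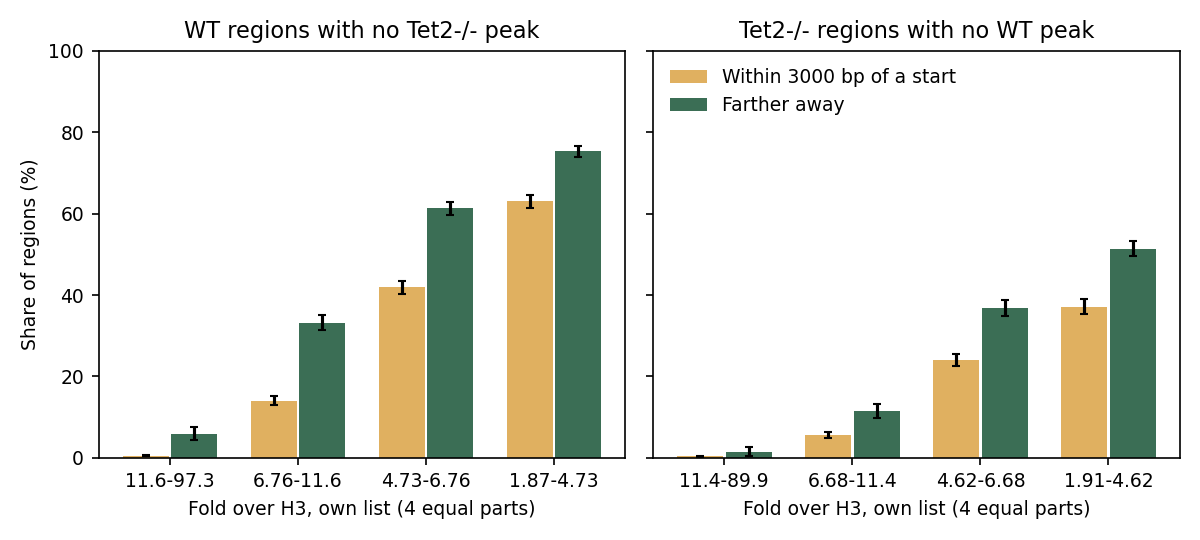
Share of WT regions that were lost (left) and of Tet2-/- regions that were gained (right), in percent, in 4 equal parts of each list ordered by fold over H3, for regions within 3000 bp of a transcript start and farther away; bars on the columns are exact 95% intervals. On the left, shares climb from 0.528% to 63.0% near starts and from 5.88% to 75.3% farther away. On the right, they climb from 0.363% to 37.2% near starts and from 1.32% to 51.4% farther away. The columns for regions farther away are the higher ones in every part.

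Regions of the lost and gained classes were narrow. The median width was 342 bp for lost regions (quartiles, 257 and 479 bp), 304 bp for gained regions (243 and 402 bp), and 726 bp for retained regions (507 and 1091 bp). Lost regions covered 4.04 Mb, gained 1.61 Mb, and retained 16.1 Mb. The median fold enrichment was 4.79 in the WT list for lost regions and 4.50 in the Tet2-/- list for gained ones. Retained regions had medians of 9.33 in WT and 7.91 in Tet2-/-, values from separate calls that are not amounts to be compared.

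The changes were concentrated away from transcript starts. Promoter windows reached 3000 bp up- and downstream of each annotated start and held 42.8% (41.8% to 43.7%) of lost and 46.0% (44.6% to 47.4%) of gained regions, against 74.4% (73.7% to 75.02%) of retained ones. Introns held 32.4% of lost, 31.0% of gained, and 13.6% of retained regions, and intergenic sequence held 20.8%, 19.1%, and 9.78%. Exons held 3.99%, 3.94%, and 2.22%. Outside promoters, 5821 regions were lost, 55.3% of the WT regions there, and 2522 were gained, 34.9% of the Tet2-/- regions there. Where a start lay inside the region, only 8.17% (7.60% to 8.75%) of 8916 WT regions were lost and 5.32% (4.86% to 5.81%) of 8648 Tet2-/- regions gained. In the rest of the promoter window the shares were 39.7% and 23.5%, so that most promoter regions in both classes flanked a start without covering it.

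**Figure D2:**
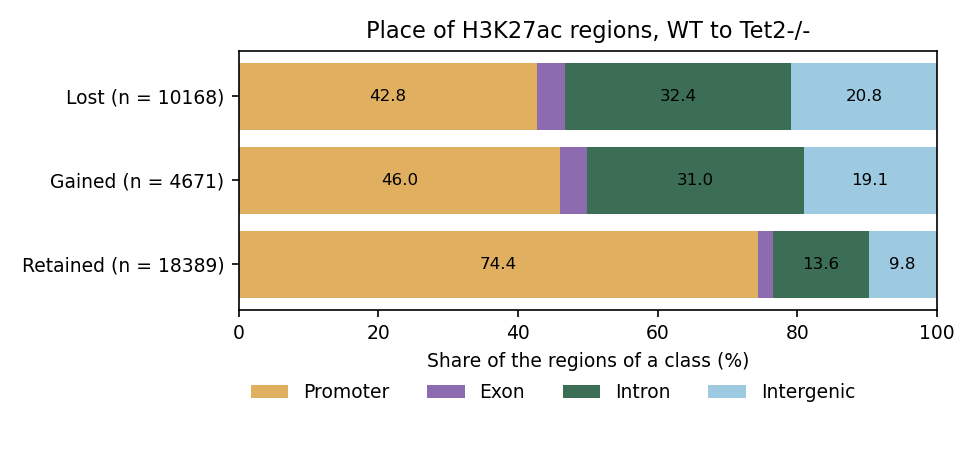
Place of the 10168 lost, 4671 gained, and 18389 retained H3K27ac regions, as the share of each class in percent that lay at promoters, in exons, in introns, and in intergenic sequence. Promoters take 74.4% of the retained bar but 42.8% and 46.0% of the bars for lost and gained regions.

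Many lost regions bordered acetylation that stayed. Outside promoters, 23.8% (22.7% to 24.9%) of lost regions lay within 1 kb of a retained region, and 42.0% within 5 kb. Gained regions stood farther apart, with 13.6% (12.2% to 14.96%) within 1 kb and 26.6% within 5 kb. Over 50 kb from any retained region lay 28.0% (26.3% to 29.8%) of gained regions outside promoters and 16.3% (15.4% to 17.3%) of lost ones. Of the WT regions on the X chromosome 25.2% were lost, against 32.4% (chromosome 11) to 39.4% (chromosome 1) over the autosomes, and the 4 regions of the Y chromosome were retained.

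H3K4me1 was mostly in place at both kinds of region, with or without the acetylation. At the lost regions outside promoters, an H3K4me1 peak was present for 84.7% (83.7% to 85.6%) in WT and still for 80.3% (79.2% to 81.3%) in Tet2-/- cells. Of the 4930 with a WT peak, 4445 had one in Tet2-/- cells as well (90.2%; 89.3% to 91.0%), compared with 96.8% (96.2% to 97.3%) at retained regions outside promoters. Gained regions were marked less often: 66.8% (64.9% to 68.6%) had H3K4me1 in WT cells, where no acetylation was called, and 73.4% (71.7% to 75.1%) in Tet2-/- cells. Of the 1852 gained regions with H3K4me1 in Tet2-/- cells, 1594 had it in WT as well (86.1%; 84.4% to 87.6%). Neither genotype had H3K4me1 at 579 gained regions (23.0%) and at 663 lost ones (11.4%), against 4.93% of retained regions outside promoters. Over all places, H3K4me1 was present in Tet2-/- cells at 75.8% (74.99% to 76.7%) of lost regions and in WT cells at 64.1% (62.7% to 65.5%) of gained ones.

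H3K4me3 set the retained regions apart. Outside promoters it was present in WT cells at 14.3% (13.5% to 15.3%) of lost, 17.5% (16.1% to 19.1%) of gained, and 42.8% (41.3% to 44.2%) of retained regions, and in Tet2-/- cells at 12.3% (11.4% to 13.1%), 21.3% (19.7% to 22.9%), and 45.8% (44.3% to 47.2%). Of the 835 lost regions there with WT H3K4me3, 66.7% (63.4% to 69.9%) had it in Tet2-/- cells, against 91.0% (87.9% to 93.5%) of the 442 gained regions and 90.8% (89.4% to 91.99%) of the retained ones. Both methylation marks thus had a lower share in Tet2-/- than in WT cells at lost regions and a higher one at gained regions, and the H3K4me3 share was higher in Tet2-/- cells at retained regions too. Whether these differences exceed the spread between mice was not tested.

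**Figure D3:**
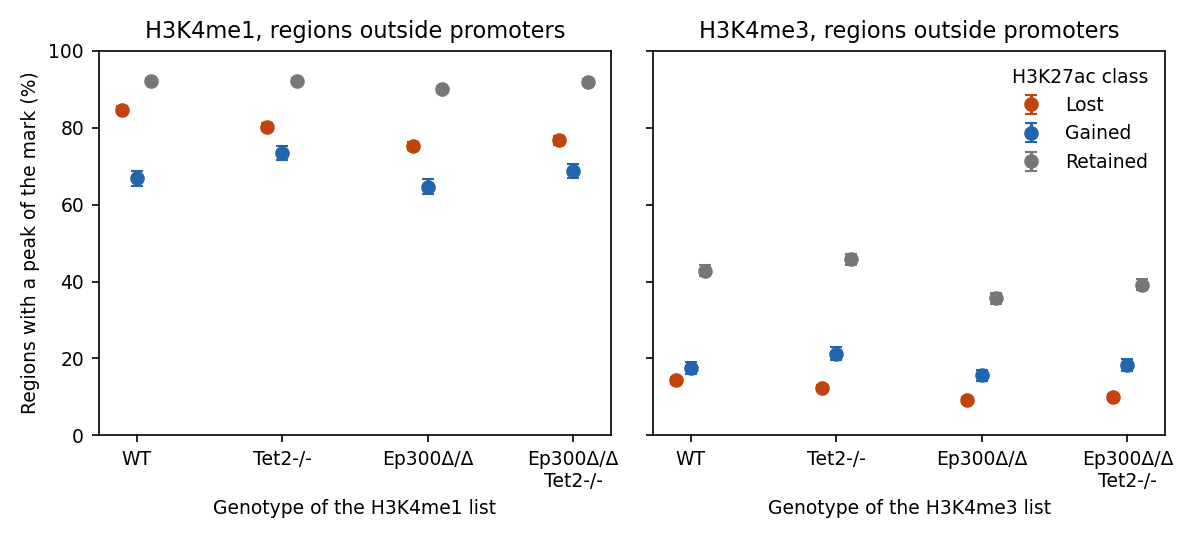
Share of the lost, gained, and retained H3K27ac regions outside promoters, in percent, that overlapped an H3K4me1 peak (left) or an H3K4me3 peak (right) in each of the 4 genotypes; error bars are exact 95% intervals. H3K4me1 stays at 84.7% and 80.3% of lost regions in WT and Tet2-/- cells, and gained regions have 66.8% and 73.4%.

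The libraries without p300 gave a further look at the same regions. The Ep300Δ/Δ list had an H3K27ac peak at 21.5% (20.7% to 22.3%) of the lost regions and the Ep300Δ/ΔTet2-/- list at 11.5% (10.9% to 12.1%). For gained regions the order was the opposite, 16.7% (15.6% to 17.8%) in Ep300Δ/Δ and 20.7% (19.6% to 21.9%) in Ep300Δ/ΔTet2-/- cells. Neither list had a peak at 73.1% (72.2% to 74.0%) of lost and 71.5% (70.2% to 72.8%) of gained regions, against 12.5% (12.1% to 13.03%) of retained ones. Most lost regions were therefore called in the WT library alone among the 4, and most gained regions in the Tet2-/- library alone.

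Regions were assigned to the gene with the nearest annotated start, which does not show the gene an enhancer acts on. The lost regions had 5976 nearest genes, 44.0% of the 13582 genes with a WT region, and 252 of them had 5 or more. The gained regions had 3834, 29.5% of 12992 genes with a Tet2-/- region, and 1499 genes had regions of both classes. Of the 5976 genes with a lost region, 3746 also had a retained one, and 1881 had no Tet2-/- region at all. Protein-coding genes were nearest to 69.0% of lost and 67.8% of gained regions, and to 82.3% of retained ones.

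By nearest annotated start, Foxp1, a forkhead transcription factor of blood and lymphoid cells, had the most lost regions, 18, beside 2 gained and 22 retained. Of these, 12 lay outside promoters, and the lost regions ranged from 2.44- to 7.98-fold. Cxcr4, the receptor that holds stem and progenitor cells in the marrow through the chemokine CXCL12, had 15 lost, 4 retained, and no gained regions. All 15 were intergenic, from 34.9 kb upstream to 31.995 kb downstream of the gene's first base, with folds between 3.05 and 7.91. H3K4me1 was present at all 15 in WT and at 13 in Tet2-/- cells, and the Ep300Δ/Δ and Ep300Δ/ΔTet2-/- lists had no peak at any of them. The 4 retained regions included the promoter.

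Syk, a tyrosine kinase of immune receptor signaling, had 14 lost, 3 gained, and 5 retained regions, and its strongest retained one stood at the 96.5th percentile by fold of the WT list and the 84.7th of the Tet2-/- list. The noncoding gene Gm17088, with 14 lost, 4 gained, and 6 retained regions, has Etv6, an ETS family repressor needed by marrow stem cells, as the nearest protein-coding start of all of them. Etv6 had 4 lost, 3 gained, and 10 retained regions of its own. Gm43984, which lies inside Etv6, had 9 lost, 2 gained, and 5 retained ones. The ranking by lost regions counts such noncoding genes apart. Atp8b4, a phospholipid-transporting ATPase, and St3gal1, a sialyltransferase, had 13 lost regions each, beside 7 and 6 retained ones. H3K4me1 was still present in Tet2-/- cells at 12 of the 13 lost regions of each gene.

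Gata2, a zinc finger factor of stem cells, mast cells, and megakaryocytes, showed the opposite pattern with 6 gained, 1 retained, and no lost regions. The gained regions followed each other from 2.19 to 9.99 kb downstream of the first base (chromosome 6, 88196083 to 88203883), within 3000 bp of one or another annotated start, and their folds in Tet2-/- cells ranged from 3.10 to 4.57, all in the weakest of the 4 equal parts of that list. All 6 had H3K4me1 in both genotypes. An H3K27ac peak was found at 2 of them in Ep300Δ/Δ and at none in Ep300Δ/ΔTet2-/- cells. Nck2, an SH2/SH3 adaptor protein, also had 6 gained regions but 6 lost ones beside them.

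A further 11 genes had 5 gained regions: AC154542.1, Ankrd11, Gm15599, Gse1, Myct1, Ptpre, Slc45a4, Svil, Syne1, Trerf1, and Unkl. Myct1, named as a target of MYC, had 1 lost and no retained region, and H3K4me1 lay at 1 of its 5 gained regions in WT and at all 5 in Tet2-/- cells. AC154542.1 had 5 gained regions and no others, and Unkl had 5 gained, 1 retained, and no lost regions. Of the 11 genes, 9 had lost regions as well, all except AC154542.1 and Unkl, beside 1499 of all 3834 genes with a gained region. Distances between gained and lost regions were not measured. Endothelium also expresses Gata2 and Myct1; of the 4 stroma and endothelium markers, Pecam1 had a promoter peak in both genotypes, Cdh5 in Tet2-/- but not WT cells, and Col1a1 and Cxcl12 in neither, and their part in these gains was not tested.

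**Figure D4:**
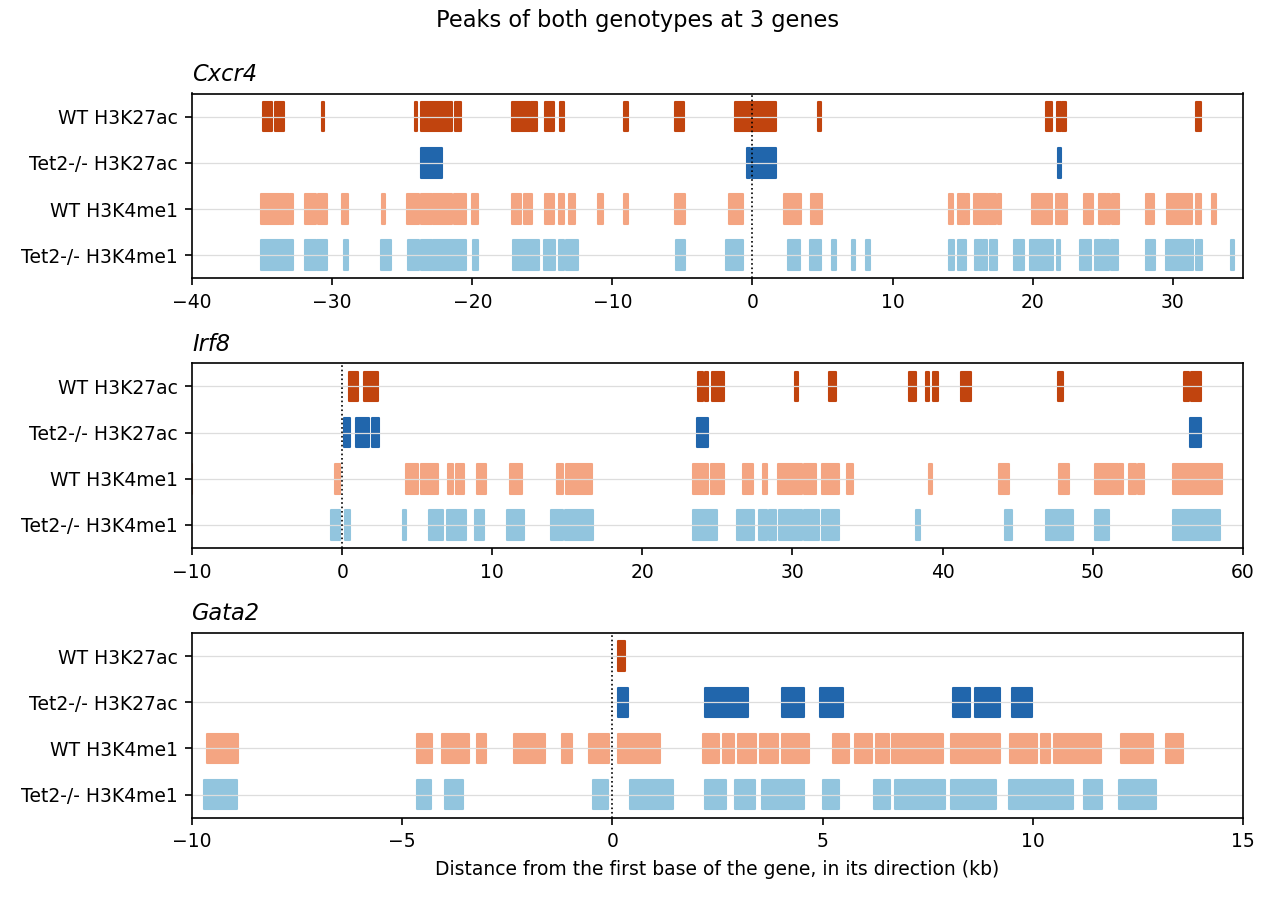
Peaks of H3K27ac and H3K4me1 in WT and Tet2-/- cells at Cxcr4, Irf8, and Gata2, each bar drawn to scale by its distance in kb from the first base of the gene in its direction; the dotted line marks that base. Among regions with these genes at the nearest start, Cxcr4 and Irf8 have WT acetylation with no Tet2-/- peak at 15 and 9, while Gata2 has 6 regions from 2.19 to 9.99 kb with Tet2-/- peaks only.

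Protein-coding promoters rarely lost or gained all of their acetylation. Of 10385 protein-coding genes with an H3K27ac peak within 3000 bp of a start in WT cells, 632 had none in Tet2-/- cells (6.09%), and of 10175 with one in Tet2-/- cells 422 had none in WT (4.15%). H3K4me3 was present at 530 of the 632 promoters (83.9%) in WT and at as many, but not all the same, in Tet2-/- cells. Of the 422 promoters, 89.1% had it in WT and 91.0% in Tet2-/- cells.

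Promoter losses were more frequent than the 6.09% over all protein-coding genes in 3 of 14 gene lists with their whole interval. The lists were chosen with earlier results of these data known, so this is a description and not a test. T and NK lymphoid genes had the highest share, 5 of 14 (35.7%; 12.8% to 64.9%), followed by myeloid genes with the most genes, and both intervals lay above 6.09%. Basophil, mast cell, and eosinophil genes had 22.2% (2.81% to 60.01%), B lymphoid genes 21.4% (4.66% to 50.8%), and erythroid and megakaryocyte genes 5 of 25 (6.83% to 40.7%), and the intervals of the former pair include 6.09%. Of the 34 myeloid regulators and granule genes acetylated at the promoter in WT cells, 11 had no promoter peak in Tet2-/- cells (32.4%; 17.4% to 50.5%), and none had one in Tet2-/- cells only. They were Cebpa, the master regulator of granulocyte and monocyte fate, the receptors Csf3r, for G-CSF, and Ccr2, for a monocyte chemokine, the integrin Itgam and the surface protein Ly6c2, Cybb, a subunit of the phagocyte oxidase, Lyz2, Prtn3, Ngp, and S100a9, which encode antimicrobial and granule proteins, and Ms4a3, a marker of granulocyte-monocyte progenitors. H3K4me3 was present at all 11 in WT and at 10 in Tet2-/- cells, without Ngp, and H3K4me1 at 11 and 10, without Ms4a3. The Ep300Δ/Δ list had a promoter peak at 5 of the 11 and the Ep300Δ/ΔTet2-/- list at 4. Some of these losses were weak: the only lost regions of Cebpa and Lyz2 had 4.21- and 4.20-fold in WT. In that weakest of the 4 parts 63.0% of all WT promoter regions were lost. The strongest lost regions of Itgam and Csf3r had 8.08- and 9.72-fold. Ly6c2 had a lost region of 4.83-fold and a gained one of 6.38-fold. Among the mature neutrophil and macrophage markers, Camp had a promoter peak in both genotypes, Mmp9 in WT but not Tet2-/- cells, and Ly6g and Adgre1 in neither; their part in the result was not tested.

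Counted by regions, the myeloid list had 65 lost and 54 retained regions, a loss of 54.6% (45.2% to 63.8%) beside 35.6% over all genes, and 10 gained. Outside promoters 25 of 36 WT regions were lost (69.4%; 51.9% to 83.7%), beside 55.3% over all genes. The strongest lost regions of this list lay at the promoters of Fcgr3, an Fc receptor (chromosome 1, 171059485 to 171060276, 10.3-fold in WT), Csf3r (chromosome 4, 126024116 to 126025169, 9.72-fold), Ctsg, the granule protease cathepsin G (chromosome 14, 56102902 to 56103204, 9.47-fold), and Prtn3 (chromosome 10, 79877319 to 79877895, 9.45-fold). Irf8, the factor that directs monocyte and dendritic cell fate, had 9 lost, 3 retained, and no gained regions. The retained ones lay at the promoter, from 23.7 to 24.4 kb, and from 56.5 to 57.2 kb downstream of its first base. The lost regions lay from 24.7 to 56.4 kb downstream of it, beyond the end of the gene and in introns of other annotated transcripts. Their WT folds ran from 3.35 to 5.51, and 6 had a peak in Ep300Δ/Δ cells and 1 in Ep300Δ/ΔTet2-/- cells. H3K4me1 lay at 6 of the 9 in WT and 5 in Tet2-/-.

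Retained regions can be set side by side only by their rank within each list, which depends on the length of the lists (29659 and 24539 peaks) and is not an amount of acetylation. For the myeloid list, the median percentile by fold of these 54 regions was 64.7 in the WT list and 33.1 in the Tet2-/- list, with a lower percentile in Tet2-/- for 42 and a higher one for 12. The median difference was -17.4 percentile points, beside -3.87 over all 18389 retained regions, of which 60.2% had a lower percentile. The lists of AP-1 and immediate early genes and of NF-kB and inflammatory genes had median differences of -10.8 and -8.98. The 13 retained regions of the basophil, mast cell, and eosinophil list had a median difference of 2.54 over single regions, with 6 lower and 7 higher. Proteasome and ribosome genes, which every cell uses, had -3.34. No replicate shows how far such medians vary between mice.

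Basophil, mast cell, and eosinophil genes had the highest share of losses of the 14 lists, 30 of 43 WT regions (69.8%; 53.9% to 82.8%). The share over all genes was 35.6%. Outside promoters 19 of 23 WT regions of this list were lost (82.6%), beside 55.3% over all genes. The WT regions of this list had a median of 4.99-fold and those of the myeloid list 5.61-fold, beside 6.76-fold over all WT regions, and the part of peak strength in these shares was not tested. The losses included Prg2, the eosinophil major basic protein, with 8, Cd200r3 with 6, and the strongest lost regions at Il5ra (11.9-fold, intronic), Il4 (7.89-fold), Hdc, the histamine-forming enzyme (7.61-fold), and Ccr3 (7.07-fold). The list also had the highest gained share of the 14, 9 of 22 Tet2-/- regions (40.9%; 20.7% to 63.6%) beside 20.3% over all genes. With lists of equal size it was 45.5% (24.4% to 67.8%) beside 25.1%, which the interval includes. Of these 9 regions 6 were those of Gata2, and the others lay at Prg2, Hpgds, and Hdc. H3K4me1 was present at 24 of the 30 lost regions in WT and at 24 in Tet2-/- cells.

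The stem and progenitor regulators had shares near those over all genes, 37.3% lost (29.1% to 46.1%) and 25.7% gained (17.9% to 34.7%), beside 35.6% and 20.3%. With each region given to the nearest protein-coding start instead, both shares lay above these, at 47.6% lost (41.6% to 53.5%) and 29.2% gained (23.2% to 35.9%). Within this list Erg and Runx1, transcription factors of blood stem cells, had 9 lost regions each, with 0 and 1 gained. Kit, the stem cell factor receptor, had 3 gained and 1 lost region. The promoters of Cd34, Hoxa9, and Mycn had a peak in WT but not in Tet2-/- cells, and all 3 had one in Ep300Δ/ΔTet2-/- cells. The lost regions of Cd34 and Hoxa9 were weak, with 3.19- and 3.99-fold in WT. Cd34 also had a gained region of 4.56-fold and a retained one. Strong lost regions lay at Ikzf1, encoding Ikaros (9.30-fold), Erg (8.08-fold), Myb (7.91-fold), and Runx1 (7.68-fold), and strong gained ones at Ikzf1 (7.68-fold), Lmo2 (6.67-fold), Etv6 (6.34-fold), and Bcl11a (5.85-fold).

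Erythroid and megakaryocyte genes split by gene. Promoter peaks were present in WT but not Tet2-/- cells at Alas2, of heme synthesis, Epb42 and Slc4a1, of the red cell membrane, Hba-a2, and Rhd, and in Tet2-/- but not WT cells at Car1, Hbb-bt, and the platelet genes Pf4 and Tubb1. Epb42, Slc4a1, and Pf4 had one in both lists without p300. Alas2, Slc4a1, and Hbb-bt were also among the markers of erythroid cells, and their part in the result was not tested. The list lost 40.0% (29.2% to 51.6%) of 80 WT regions and gained 23.8% of 63. B lymphoid genes lost 15 of 31 regions (48.4%; 30.2% to 66.9%), with promoter losses that included Blnk and Pou2af1, and gained 6 of 22. T and NK lymphoid genes lost 22 of 47 (46.8%; 32.1% to 61.9%) and gained 9 of 34, with promoter losses that included Gzmb, Klrb1c, Notch1, and Prf1. Of the 4 mature T and NK markers, only Klrb1c had a promoter peak in WT, and none had one in Tet2-/-. Klrb1c is itself one of these promoter losses, so the marker is not a separate observation, and its part was not tested. The intervals of all 3 lists include the 35.6% lost and the 20.3% gained over all genes. With lists of equal size the lost shares were 28.6% for erythroid and megakaryocyte, 34.8% for B lymphoid, and 34.3% for T and NK lymphoid genes, beside 26.8%. By nearest protein-coding start instead, the lost shares of B lymphoid (53.8%; 39.5% to 67.8%) and of T and NK lymphoid genes (52.4%; 41.1% to 63.6%) lay above 35.6%.

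Signaling and stress genes had gained shares near or below the 20.3% over all genes, with intervals that reached it. The intervals of the lost shares given here all include the 35.6% lost over all genes. AP-1 and immediate early genes lost 34.8% (25.0% to 45.7%) and gained 10.8% (4.44% to 20.9%), with no promoter lost, and NF-kB and inflammatory genes lost 32.1% (23.6% to 41.6%) and gained 11.6% (5.72% to 20.35%). Promoter acetylation at Cd14, Il1r2, Socs3, and Tlr2 was found in WT but not Tet2-/- cells, and at Cd14 and Tlr2 also in both lists without p300. Interferon response genes lost 27.1% and gained 20.4%, and the strongest lost region of all lists lay 28725 bp from the start of Ifngr1, a chain of the interferon gamma receptor (chromosome 10, 19561776 to 19563224, 16.3-fold, with H3K4me1 in both genotypes). MHC and antigen presentation genes lost and gained 19.2% each, with H2-Aa and Cd74 promoters acetylated in each genotype but WT. Cell cycle and survival genes lost 31.4% and gained 14.6%.

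Genes of the DNA methylation machinery gained 24.6% (14.1% to 37.8%) of 57 Tet2-/- regions and lost 20.4% (10.6% to 33.5%) of 54 WT regions, with intervals that overlap. The 35.6% lost over all genes lay above the interval of the lost share, and the 20.3% gained lay inside that of the gained share. The order turned with the nearest protein-coding start, 27.3% gained and 29.1% lost (19.4% to 40.4%), and this interval includes 35.6%. With lists of equal size 16.3% (7.32% to 29.7%) were lost, an interval that includes the 26.8% over all genes. Dnmt3a, a de novo methyltransferase often mutated in the same blood disorders, had 3 gained and 1 lost region, Tet3 had 3 lost and none gained, and Tet2 itself had 1 lost region. Histone acetylation genes lost 34.2% (23.7% to 46.0%) and gained 20.6%. Crebbp, which encodes the p300 paralog CBP, had a single promoter region in WT (4.57-fold) and none in Tet2-/-. Proteasome and ribosome genes had the lowest shares, 14.0% lost (7.42% to 23.1%) and 2.63% gained (0.320% to 9.18%), and all 44 promoters were acetylated in both genotypes.

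**Figure D5:**
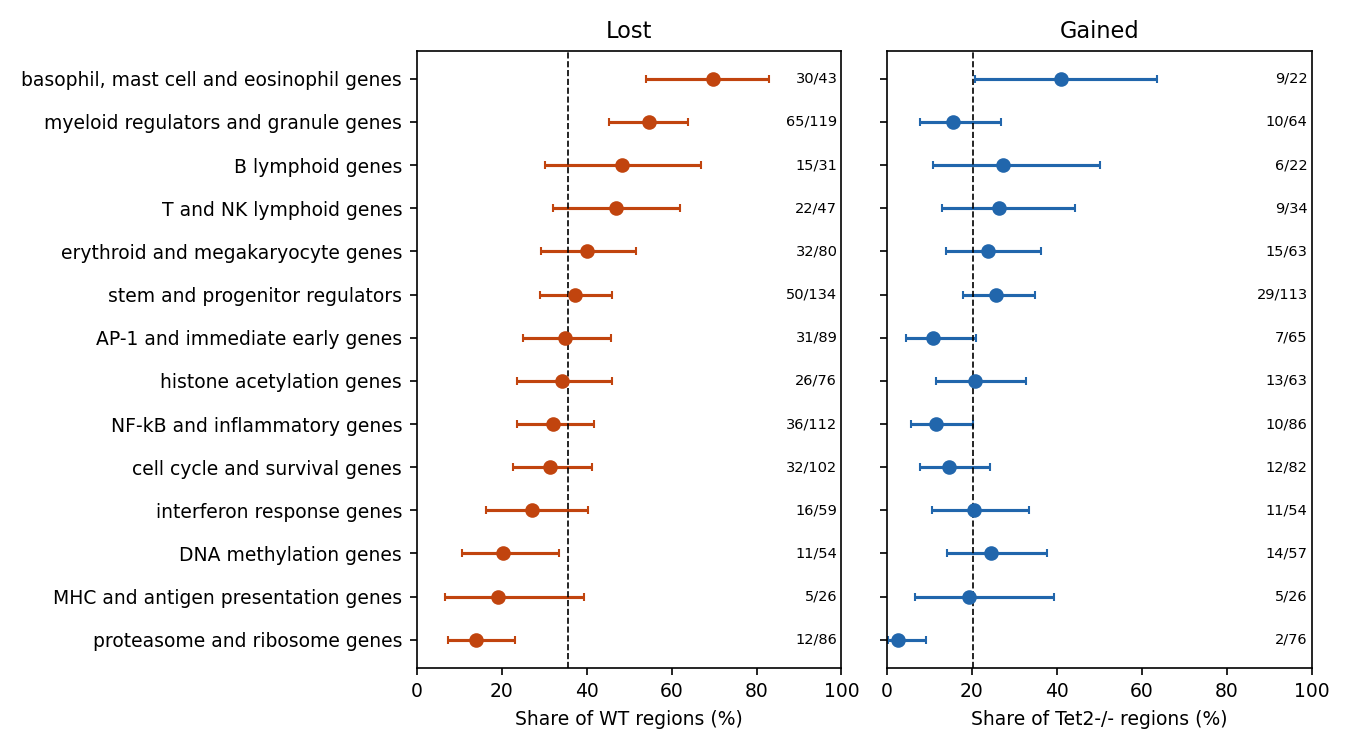
Share of WT regions lost (left) and of Tet2-/- regions gained (right), in percent, for regions nearest to the genes of 14 lists; points are shares, bars exact 95% intervals, the numbers at the right regions over total, and the dashed lines 35.6% and 20.3% over all genes. Myeloid genes (54.6%) and basophil, mast cell, and eosinophil genes (69.8%) lie above the left line with their whole interval, the latter list also above the right line (40.9%), and proteasome and ribosome genes (14.0% and 2.63%) lie below both lines.

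Few single regions were strong in one list and absent from the other. The strongest lost regions outside promoters were an exonic region near the pseudogene Gm4432 (chromosome 17, 32225493 to 32225785, 17.6-fold, with no H3K4me1 or H3K4me3 peak in any genotype) and an intronic region of Fam222b (chromosome 11, 78100305 to 78101316, 17.5-fold). An intronic region of Gsr, glutathione reductase, followed (chromosome 8, 33675445 to 33677072, 17.0-fold), and H3K4me3 was called there in WT only. The others lay near Nxpe1-ps, Ifngr1, Ylpm1, Gm47216, and Gm49506, between 16.8- and 15.4-fold. Of these 8 regions, 5 had a peak in Ep300Δ/Δ cells and 1 in Ep300Δ/ΔTet2-/- cells. At promoters, the strongest lay at Gm20633 beside the histone gene Hist2h3c1 (23.2-fold), Sprtn (20.9-fold), Rab6b (20.8-fold), Gm15471, Atp5h, and Apobec3, and all 6 had a peak in at least one of the lists without p300.

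The strongest gained region outside promoters was an intronic one of Snd1, a nuclease and coactivator (chromosome 6, 28929278 to 28929879, 21.4-fold), where H3K4me3 was called in Tet2-/- but not in WT cells. It was followed by regions near Gm17711 (15.8-fold), 4933431J24Rik (14.1-fold), Rgs9 (13.2-fold), Gm9002 (13.2-fold), Eya2 (12.6-fold), Rbbp8 (11.8-fold), and 1700017L05Rik (11.1-fold). Of these 8, 7 also had a peak in Ep300Δ/ΔTet2-/- cells. At promoters, the strongest gained regions were those of CT030661.1 (26.7-fold), Cldnd1 (17.0-fold), Unkl (16.6-fold), Slc22a15 (15.8-fold), Gm49312 (15.7-fold), and Zfp704 (15.5-fold). All 6 had H3K4me3 in both genotypes and a peak in Ep300Δ/ΔTet2-/- cells.

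Among retained regions outside promoters, fold enrichment agreed moderately between the lists (Spearman's rho 0.485 and Pearson's r of log2 fold 0.572, across 4710 regions, all from the same 2 libraries and not independent replicates). The regions picked for the largest differences of percentile within these lists of unequal length, which is therefore a description, stood lower in Tet2-/- at Glipr1 (88.9 in WT to 3.99 in Tet2-/-), Gm26066, Ubac2, Gm6807, and Alox5ap, which encodes the activator of leukotriene synthesis (80.5 to 1.502). They stood higher at Ttc39b (6.09 to 79.0), Nup93 (2.49 to 72.3), Gm18994, Ahctf1, and Gm24819. A retained region outside promoters was covered by WT peaks over a median of 574.5 bp and by Tet2-/- peaks over 488 bp, and 3036 were narrower and 1660 wider in Tet2-/- cells.

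CpG was sparser at lost than at retained regions. Within 100 bp of the summit, lost regions outside promoters had a median of 2 CpG (quartiles, 1 and 4; mean 2.86, SD 2.18 over 5821 regions), gained regions 3 (1 and 5; mean 3.26, SD 2.48 over 2522), and retained regions 3 (2 and 5; mean 3.63, SD 2.82 over 4710). The SDs describe the spread over regions and exceed the differences. Within ranges of fold, a comparison added after the data were seen, the means for lost, gained, and retained regions were 2.89, 3.20, and 3.38 under 5-fold, 2.79, 3.32, and 3.39 from 5- to 8-fold, and 2.97, 4.44, and 4.01 at 8-fold and over, where 62 regions were gained. The difference was wide at promoters, with medians of 4 CpG for lost, 5 for gained, and 11 for retained regions, and where a start lay inside the region they were 7, 8, and 13. The means there were 9.32 for lost, 9.06 for gained, and 12.8 for retained regions, so that lost and gained regions did not keep their order. GC content had medians of 50.7%, 52.2%, and 51.7% outside promoters and 52.2%, 53.7%, and 59.2% at promoters.

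Motif content outside promoters differed by few percentage points between the classes within 100 bp of the summit. Sequence reaching 100 bp to each side of the summit was scanned, forward and reverse strand, for these consensus letters: ETS CCGGAAGT, PU.1 GAGGAAGT, GATA factors AGATAA, RUNX TGTGGT, C/EBP TTGCNNAA, AP-1 TGANTCA, IRF GAAANNGAA, NF-kB GGANNTTCC, MYB CNGTTG, CRE TGACGTCA, CTCF AGGGGGCGC, NF-Y CCAAT, SP/KLF GGGCGGGG, and E-box CAGNTG. ETS and PU.1 share 6 letters, and a base can count for more than one motif. Lost regions held RUNX letters in 16.9% (16.0% to 17.9%), gained regions in 17.2% (15.7% to 18.7%), and retained regions in 16.2% (15.2% to 17.3%), compared with 16.7% of all 13053 regions outside promoters. GATA was found in 7.49%, 7.85%, and 6.67% (7.26% of all), and AP-1 in 6.18%, 6.26%, and 6.31% (6.24% of all). PU.1 was found in 1.87%, 2.54%, and 1.95% (2.03% of all), and C/EBP in 6.92%, 6.03%, and 6.20% (6.49% of all). The IRF letters were less frequent in lost regions, 4.52% (3.999% to 5.08%), than in gained ones, 6.03% (5.13% to 7.03%), with 5.20% (4.58% to 5.87%) in retained ones and 5.06% of all. The intervals of lost and gained regions did not overlap there, and did within 250 bp (15.3% to 17.2% and 16.7% to 19.8%). NF-Y had 20.2% (19.2% to 21.3%) in lost, 18.2% (16.8% to 19.8%) in gained, and 17.8% (16.7% to 18.9%) in retained regions (19.0% of all). Each of the other 7 differed by less than 2 percentage points between classes. Within 250 bp, PU.1 was in 7.20% (6.55% to 7.89%) of lost, 8.01% (6.98% to 9.14%) of gained, and 9.49% (8.67% to 10.4%) of retained regions. C/EBP was in 20.8% (19.8% to 21.9%), 18.1% (16.6% to 19.7%), and 21.5% (20.3% to 22.7%), and SP/KLF in 2.94% (2.52% to 3.40%), 3.85% (3.13% to 4.67%), and 5.33% (4.70% to 6.01%). A match is a string of letters and not a bound site, and no match says nothing of the factor.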

How the data were processed

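H3K27ac, H3K4me1, and H3K4me3 were profiled by ChIP-Seq in Lin- cells, with 1 library for each genotype and mark; the 8 H3 and H3K27me3 samples were not analysed here. Trimming by the authors used cutadapt 1.15 and alignment BWA 0.7.13 with the mm10 build; they removed duplicates with Picard and called narrow peaks with MACS2 2.1.1.20160309 over H3, keeping those that overlapped between pseudo-replicates at a stated q under 0.05, a step that bears on which weak peaks are listed. In the deposited lists 267 WT and 199 Tet2-/- H3K27ac peaks had a larger q and were kept here. The deposited columns hold a score (not used), the ratio, or fold, over H3, with p-value and q-value as −log10. Depth is not given by peak lists, so precision is that of the region counts; lists are not comparable as amounts. The labels call the libraries single-end and the methods paired-end.

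Lists were merged and classed by overlap, and regions were placed and assigned with GENCODE release M21 on GRCm38, which is mm10; sequences are from the RefSeq GRCm38 assembly. Shares carry exact Clopper-Pearson 95% intervals. No test between genotypes was possible. Counting code was tested on simulated lists and against bedtools 2.31.1, under Python 3.11.15 with scipy 1.17.1 for intervals, pysam 0.24.0 for sequence, pandas 2.3.3 and numpy 2.4.6 for tables, and matplotlib 3.10.9 for plots. The members and the gene lists were chosen with earlier results of these data known. Named were Tet2 and Ep300, the 8 lost regions and 8 gained with the highest fold outside promoters and 6 of each at promoters (autosomes), the 5 genes with the most lost and most gained regions with ties, the 5 largest percentile changes each way, and up to 4 genes per list and direction by fold; Irf8, Erg, Kit, Prg2, Cd200r3, Dnmt3a, Tet3, Crebbp, and the genes named for promoter peaks in 1 genotype were chosen after their values were seen. Results on a few genes are not reported here.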

Additional observations from a re-analysis of the deposited data

How the results depend on the processing

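No paired analysis was possible because each genotype has 1 library, so no replicate could be left out either. Counts of lost and gained regions stayed within 1.5 times of 10168 and 4671 with an overlap of at least 50% of the region, with no peak allowed within 500 bp, with a −log10 q of at least 3, and on autosomes. Other settings moved them: a −log10 q of at least 5 left 6626 lost regions, lists of equal size 6327, and only the upper part of each list by fold 1590 lost and 489 gained; this last setting counts fewer regions by construction. The promoter share of lost regions, 42.8%, was 44.0% with an overlap of 50%, 37.6% with the 500 bp limit, 45.7% at a −log10 q of at least 5, 44.4% with equal lists, 44.8% in the upper part, 26.9% with promoters of 1000 bp, and 35.1% with protein-coding starts. For gained regions it was 46.0%, and 38.8% with the 500 bp limit, 48.7% and 54.8% at a −log10 q of at least 3 and 5, 58.7% in the upper part, 33.1% with promoters of 1000 bp, and 38.5% with protein-coding starts. The H3K4me1 share of lost regions in Tet2-/- cells, 75.8%, was 77.0% with an overlap of 50% and at a −log10 q of at least 3, 77.4% at 5, 71.1% in the upper part, and 72.5% where H3K4me1 had to cover 50% of the region. That of gained regions in WT cells, 64.1%, was 62.5% with the 500 bp limit, 66.1% and 69.0% at a −log10 q of at least 3 and 5, 67.5% with equal lists, 48.7% in the upper part, and 59.2% with 50% covered. The cause was not tested.

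The share of myeloid regions lost was 57.4% with protein-coding starts (35.6% over all genes), 50.5% with equal lists (26.8%), and 16.9% in the upper part (7.96%), and that of the basophil, mast cell, and eosinophil list 71.2%, 61.3%, and 31.6%; the settings after the first were added after the data were seen. Without replicates or depth, differences in library yield, in the makeup of Lin- cells, and in acetylation cannot be told apart.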
